A study of Rattus norvegicus with 18 samples.

Results

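Immediate early genes are genes whose transcription neurons switch on within minutes of synaptic activity, without the need for new protein synthesis. Calcium entry and kinase cascades act on transcription factors that are already present, chiefly CREB and serum response factor, and the products include both transcription factors and proteins that act at synapses or end the signal. In hippocampus their RNA is widely used as a mark of recent neuronal activity, and it falls back within hours. The 10 genes described here were chosen by symbol: the transcription factors Egr1, Egr2, Fos, Junb, Nr4a1 and Npas4, the synaptic proteins Arc and Homer1, the inducible cyclooxygenase Ptgs2 and the phosphatase Dusp1. On the array, 16 of 15923 probe sets carried the symbol of 1 of these genes alone, and they stood for 9 of the 10412 genes named on it. No probe set carried the symbol Npas4, and 1 probe set that listed Homer1 with a second gene was not used.

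The series profiled total RNA of rat hippocampus from animals of 3 diets, alcohol, isocaloric and control, in a study of learning after alcohol exposure before birth. Within each diet some animals had been through training abbreviated CFC, which the labels do not spell out, and the others are called naive. The groups were alcohol naive (n = 4 arrays), alcohol trained (n = 4), isocaloric naive (n = 2), isocaloric trained (n = 4), control naive (n = 2) and control trained (n = 2). Strain, sex, age, alcohol dose and the time from training to tissue collection are not given in the sources used here. The labels do not say whether replicates came from separate animals or litters, so a p-value here compares a difference with the spread among these arrays, part of which may be technical.

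Total signal ran from 2919033 to 3134075 per array, and replicates of a group correlated at 0.965 to 0.982 over all probe sets. Of the listed markers of CA1 and CA3 pyramidal cells, 9 of the 9 genes on the array passed the filter on low values, as did 12 of 12 general neuron markers. Of the dentate granule cell markers, 2 of 6 genes passed. Of listed thalamus and striatum markers, Penk, Ppp1r1b, Prkcd, Rgs9, Drd2, Ntng1 and Tcf7l2 passed too, while Drd1, Lef1 and Adora2a did not. The filter kept 9520 of 15923 probe sets, so passing it does not identify a tissue. Summed signal of choroid plexus markers lay between 844 and 12601, and 4 arrays stood far above the rest in it, namely alcohol trained replicate 4, alcohol naive replicate 2, isocaloric trained replicate 3 and control trained replicate 1. In bulk tissue, fewer cells of a type and less RNA per cell cannot be told apart.

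Promoter sequence was set beside the values to show which known response elements lie next to the start of the members whose signal differed between diets. RefSeq promoters on the rat build GRCr8, from 250 bases before to 50 bases after each start, were held for 8 of the 10 genes, all but Arc and Fos. They were searched on both strands for the cAMP response element TGACGTCA, which CREB binds, for its core TGACG, for the CArG box bound by serum response factor, and for the EGR site GCGTGGGCG. A full element contains overlapping cores. The 250 bases before the start of 4 members follow, read 5′ to 3′ along the gene, with matches in capitals. Ptgs2 and Nr4a1 are shown because they were lower with alcohol than with the isocaloric diet, Egr1 because it was higher with alcohol than with the control diet, and Dusp1 because it holds the full element.
Ptgs2, chr13:64713813-64714062, + strand: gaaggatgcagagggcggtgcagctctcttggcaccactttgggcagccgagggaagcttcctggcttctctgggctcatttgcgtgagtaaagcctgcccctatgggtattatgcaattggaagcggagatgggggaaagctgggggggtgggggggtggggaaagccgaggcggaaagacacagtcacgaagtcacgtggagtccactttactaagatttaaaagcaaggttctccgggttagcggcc
Nr4a1, chr7:134259888-134260137, + strand: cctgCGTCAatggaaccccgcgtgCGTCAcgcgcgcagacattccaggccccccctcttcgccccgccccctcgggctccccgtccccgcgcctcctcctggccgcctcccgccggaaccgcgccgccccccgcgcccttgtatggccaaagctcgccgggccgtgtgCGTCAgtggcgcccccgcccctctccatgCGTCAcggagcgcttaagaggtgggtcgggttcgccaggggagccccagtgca
Egr1, chr18:26736828-26737077, + strand: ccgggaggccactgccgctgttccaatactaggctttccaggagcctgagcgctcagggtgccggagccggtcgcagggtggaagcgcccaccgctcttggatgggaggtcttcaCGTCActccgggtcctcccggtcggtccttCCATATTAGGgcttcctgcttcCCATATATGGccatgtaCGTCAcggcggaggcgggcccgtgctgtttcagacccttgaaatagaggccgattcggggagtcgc
Dusp1, chr10:17184603-17184852, + strand: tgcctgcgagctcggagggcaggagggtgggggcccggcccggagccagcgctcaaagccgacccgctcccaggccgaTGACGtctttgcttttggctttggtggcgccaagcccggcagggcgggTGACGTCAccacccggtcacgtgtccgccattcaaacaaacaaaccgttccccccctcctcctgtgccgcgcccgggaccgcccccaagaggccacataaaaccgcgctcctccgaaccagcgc

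Of 33469 promoters of this length, 1.83% held the full cAMP response element, 21.2% a core alone or within it, 1.64% a CArG box and 0.544% the EGR site. Dusp1 held the full element, which starts 124 bases before the gene's start. Nr4a1 held 4 cores and no full element. Egr1 held 2 CArG boxes and 2 cores, Egr2 held 1 of each, and Junb held 1 core. None of these letters was found in the Ptgs2, Homer1 or Npas4 window, and the EGR site was found in none of the 8. A match is a run of letters and not evidence of binding.

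Signals are the deposited linear intensities, and differences are on the scale log2(signal + 6.06). For that test 10 probe sets of 7 members passed the filter, which asks for a mean level at or above the 40th percentile of all probe sets. The filter uses the mean over all 18 arrays. They were the probe sets of Arc (1387068_at), Egr1 (1368321_at), Junb (1387788_at), Nr4a1 (1386935_at), Ptgs2 (1368527_at), 1 of Dusp1 (1368146_at) and 4 of Homer1 (1368318_at, 1368319_a_at, 1370454_at and 1370656_a_at). The other 6 lay under it, namely both of Fos, both of Egr2, 1368147_at of Dusp1 and 1370997_at of Homer1. Their mean levels stood between the 16.4th and 32.5th percentile. The plot of signals by group shows the tested probe sets on every array.

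**Figure D1:**
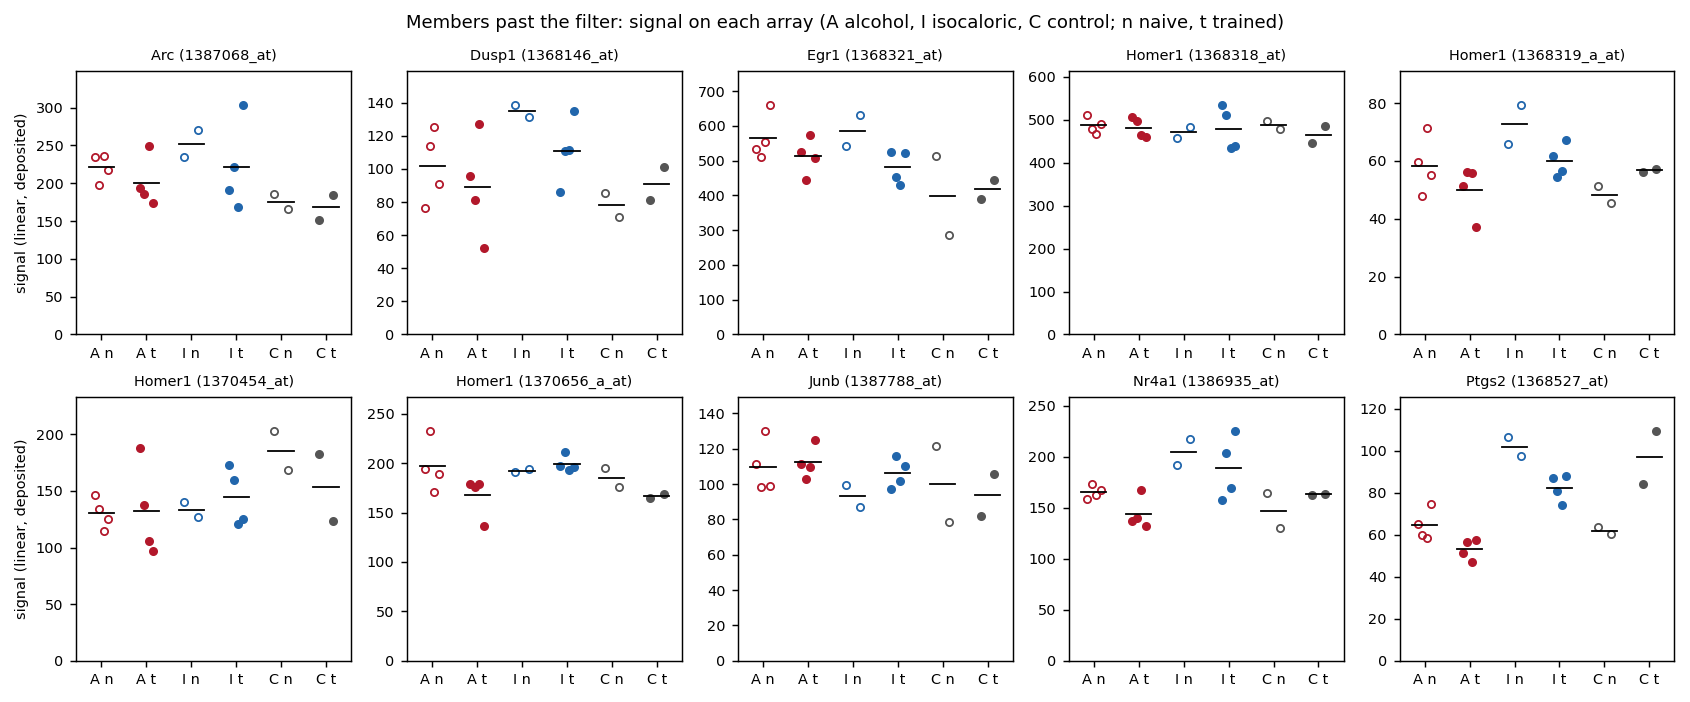
Deposited linear signal (vertical axes, each from 0) of the 10 tested member probe sets on each of 18 arrays, by group on the horizontal axes; open points are naive, filled points trained, and black bars are group means. In the Ptgs2 panel the 8 alcohol arrays lie between 47.0 and 74.5 and the 6 isocaloric arrays between 74.2 and 106, with no overlap within a training state.

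Ptgs2, which encodes cyclooxygenase-2, the inducible enzyme of prostaglandin synthesis, showed the clearest diet difference of the members. Its signal in alcohol trained arrays was 51.5, 56.7, 47.0 and 57.4, and in isocaloric trained arrays it was 86.8, 80.6, 74.2 and 87.7. In alcohol naive arrays it was 65.3, 59.8, 58.3 and 74.5, against 106 and 97.3 in isocaloric naive arrays. Within each training state every alcohol array lay below every isocaloric array, which held for 1.79% of all 9520 probe sets tested. Averaged over trained and naive arrays, Ptgs2 fell by 0.60 with alcohol against isocaloric (SE 0.09, 95% interval -0.79 to -0.41, limma adjusted p = 0.00427), a 1.51-fold lower level. Of the 29 alternative settings in which it was tested, it kept this call in 29, with an adjusted p of at most 0.0469.

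Nr4a1 encodes Nur77, an orphan nuclear receptor induced by activity. Its signal in alcohol naive arrays was 159, 173, 162 and 167, all below the isocaloric naive values of 192 and 217, as was the case for 15.3% of all probe sets in these naive groups. In alcohol trained arrays it was 137, 140.1, 168 and 132, and in isocaloric trained arrays 158, 204, 169 and 225, so that the trained groups overlapped. The averaged difference was -0.33 (SE 0.09, 95% interval -0.51 to -0.15, limma adjusted p = 0.0448), and 8 of 8 alcohol arrays lay below the isocaloric mean of their training state. This call stood close to the threshold and was lost in 19 of 30 alternative settings, with adjusted p from 0.0136 to 0.239 over all 30. Among the 18 fits that each left out 1 array it was kept in 4, those without alcohol trained replicate 3, isocaloric trained replicate 1, control naive replicate 1 or control naive replicate 2.

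Ptgs2 and Nr4a1 were thus the members called in this comparison, 2 of 10 probe sets tested and both lower, where 3.06% of all probe sets were called in either direction and 1.59% were called lower. The other members did not pass. Arc, whose RNA is carried to dendrites and whose protein drives removal of AMPA receptors, differed by -0.15 (95% interval -0.39 to 0.09, limma adjusted p = 0.468). Egr1, a zinc-finger transcription factor linked to lasting plasticity, differed by 0.01 (95% interval -0.21 to 0.24, adjusted p = 0.956). Junb, an AP-1 subunit, differed by 0.14 (95% interval -0.07 to 0.36, adjusted p = 0.44). The intervals of Arc, Egr1 and Junb all hold 0. Dusp1, a phosphatase that switches off MAP kinases, differed by -0.38 on its tested probe set (95% interval -0.71 to -0.04, adjusted p = 0.179), and passed with the actin ratio as a covariate (-0.43, adjusted p = 0.0428). Homer1, a postsynaptic scaffold with a short activity-induced form, differed by -0.27 on 1368319_a_at (95% interval -0.50 to -0.03, adjusted p = 0.173) and by -0.11 to 0.03 on its other 3 tested probe sets. Its probe sets could not be assigned to the short or long form from the sources used here. The median over the 10 member probe sets was -0.13, beside -0.02 over all probe sets tested.

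The 3′ to 5′ ratio of the Gapdh control probe sets, a measure of RNA integrity, moved with this comparison. With alcohol its log2 value averaged 0.258 ± 0.121 (SD, n = 8) and in isocaloric arrays 0.133 ± 0.0401 (SD, n = 6), at p = 0.0193 in an exact two-sided permutation test (adjusted p = 0.0726 over 6 tests). With the ratio as a covariate, Ptgs2 kept its call and Nr4a1 lost its own (adjusted p = 0.239). Of 7 choroid plexus probe sets tested, 0 were called in this comparison. Without the 4 arrays highest in them the adjusted p of Nr4a1 was 0.121 while Ptgs2 stayed past the threshold. Beyond these fits, the part of RNA integrity in the Nr4a1 result was not tested.

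Split by training state, the Ptgs2 difference lay on the same side in both. Ptgs2 fell by 0.58 in trained arrays (SE 0.11, limma adjusted p = 0.0334, 4 of 4 alcohol arrays lower), the 1 member of 10 called there, where 0.399% of all probe sets were called. That call was lost in 14 of 29 alternatives, 9 of which left out 1 array (adjusted p of at most 0.097). They left out alcohol trained replicate 1, 2 or 3, any of the 4 isocaloric trained arrays or either isocaloric naive array. With only the alcohol trained and isocaloric trained groups in the fit, its adjusted p was 0.0738, and with the Gapdh ratio as a covariate it was 0.285. In naive arrays the Ptgs2 difference was -0.62 (SE 0.14, adjusted p = 0.0872). There 0 members passed in limma, 2 had an unadjusted p under 0.05 beside 12.4% of all probe sets, and 0.0735% of all probe sets were called. Nr4a1 differed by -0.37 in trained arrays (adjusted p = 0.141) and by -0.30 in naive arrays (adjusted p = 0.382).

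**Figure D2:**
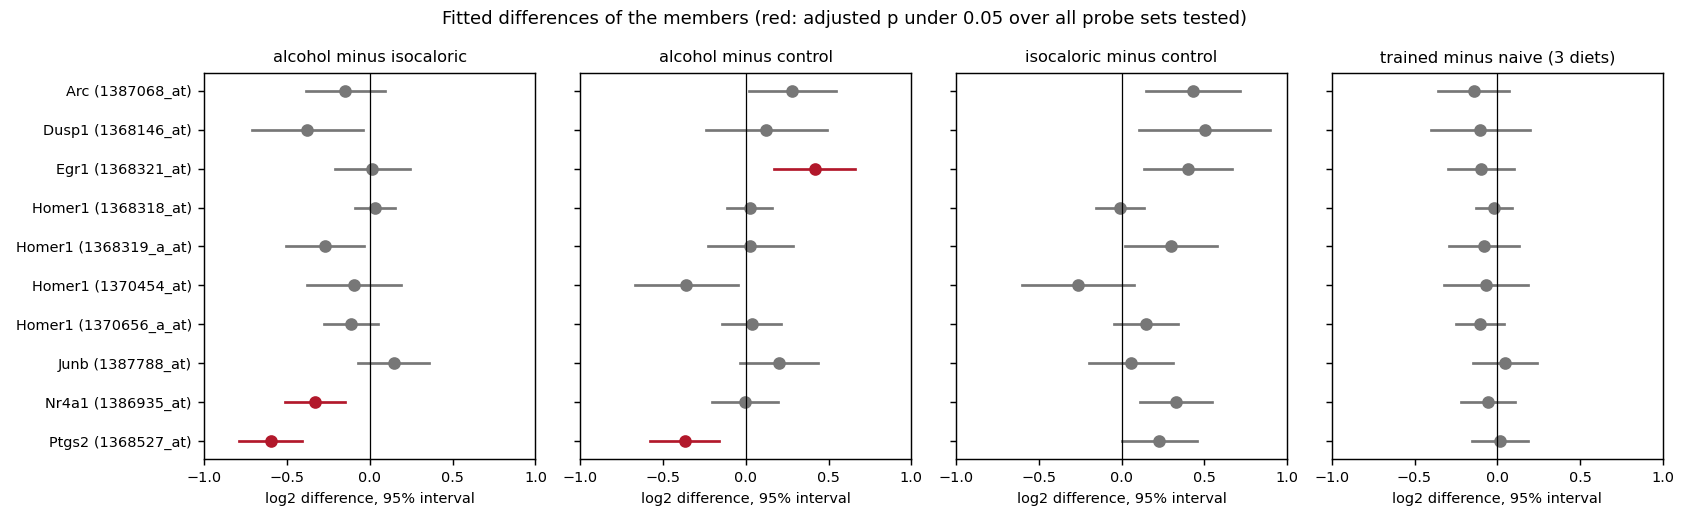
Fitted log2 difference (horizontal axes) with its 95% interval for the 10 tested member probe sets in the 3 averaged diet comparisons and the averaged training comparison; red marks an adjusted p under 0.05 over all 9520 probe sets. Ptgs2 (-0.60) and Nr4a1 (-0.33) are red in the first panel, Egr1 (0.42) and Ptgs2 (-0.37) in the second, and no member in the other panels.

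Against the control diet, Egr1 was higher and Ptgs2 lower with alcohol. The 2 comparisons with the control diet share the same 4 control arrays, so their values are given side by side and are not independent of each other. Egr1 signal was 534, 509, 554 and 659.7 in alcohol naive arrays and 526, 446, 573 and 507 in alcohol trained arrays. In control naive arrays it was 512 and 287, and in control trained arrays 390.2 and 444. The lowest value, 287, is control naive replicate 2, and the alcohol and control naive groups overlapped, since the other control naive array read 512. Egr1 was higher with alcohol by 0.42 (SE 0.12, 95% interval 0.17 to 0.66, limma adjusted p = 0.02), with 8 of 8 alcohol arrays above the control mean of their training state. Ptgs2 was lower by 0.37 (SE 0.10, adjusted p = 0.0151), although 6 of 8 alcohol arrays lay on that side. Its control trained values of 84.3 and 109 stood above all alcohol arrays, and its control naive values of 63.5 and 60.3 lay inside the alcohol naive range. These were 2 of 10 member probe sets, a share close to the 19.9% of all probe sets called in this comparison (11.3% higher and 8.61% lower).

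Both calls depended on single control arrays, and both were lost with the actin ratio as a covariate. With that ratio Ptgs2 stood at -0.35 (limma adjusted p = 0.166), and with array weights at -0.38 (adjusted p = 0.0639). Egr1 stood at 0.21 (adjusted p = 0.205) without control naive replicate 2, at 0.37 (adjusted p = 0.0957) without control trained replicate 1 and at 0.22 (adjusted p = 0.432) with the actin ratio as a covariate. Ptgs2 stood at -0.28 (adjusted p = 0.107) without control trained replicate 2 and at -0.39 (adjusted p = 0.0541) without control naive replicate 2. The log2 3′ to 5′ ratio of the actin control probe sets averaged 0.397 ± 0.161 (SD, n = 8) in alcohol arrays and 0.643 ± 0.0943 (SD, n = 4) in control arrays, at p = 0.0242 in an exact two-sided permutation test (adjusted p = 0.0726). The submitters' processing notes name MAS5 for 2 arrays, control naive replicate 1 and control trained replicate 2. Without both, Egr1 stood at 0.67, Ptgs2 at -0.27 (adjusted p = 0.131) and Junb at 0.43 (adjusted p = 0.0139). Junb differed by 0.20 (adjusted p = 0.224) over all arrays and by 0.35 (adjusted p = 0.024) without control naive replicate 1. Homer1 on 1370454_at differed by -0.36 (adjusted p = 0.0989), and by -0.45 (adjusted p = 0.0245) without alcohol trained replicate 1.

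In the isocaloric diet against the control diet 0 of 10 member probe sets passed in limma, where 7.05% of all probe sets did, and 6 had an unadjusted p under 0.05, as had 25.1% of all probe sets. Arc signal was 191, 221, 168 and 303 in isocaloric trained and 234 and 269.8 in isocaloric naive arrays, against 186 and 166 in control naive and 152 and 185 in control trained arrays. The Arc difference was 0.43 (95% interval 0.15 to 0.71, adjusted p = 0.06). Nr4a1 differed by 0.33 (adjusted p = 0.0601), Egr1 by 0.40 (adjusted p = 0.0614), Dusp1 by 0.50 (adjusted p = 0.107) and Ptgs2 by 0.23 (adjusted p = 0.19). The Ptgs2 value averages opposite differences. Its mean log2 level was 6.75 in isocaloric naive against 6.09 in control naive arrays. In trained arrays it was 6.46 with the isocaloric diet against 6.67 with the control diet. The median over all probe sets was 0.02 here and -0.09 after median centring of the arrays, which lowers the member differences by as much (Arc to 0.32, Nr4a1 to 0.22). Arc, Egr1 and Nr4a1 all passed without control naive replicate 1 (adjusted p = 0.0339, 0.000459 and 0.0121). Arc passed without isocaloric trained replicate 3 (adjusted p = 0.0356), and Nr4a1 without isocaloric trained replicate 1 (adjusted p = 0.0397). In the alcohol against control comparison Arc differed by 0.28 (adjusted p = 0.122), Nr4a1 by -0.00 (adjusted p = 0.987) and Dusp1 by 0.12 (adjusted p = 0.659). Nr4a1 and Dusp1 were there higher with alcohol in naive arrays and lower in trained arrays. For Nr4a1 the mean log2 levels were 7.42 against 7.25 in naive arrays and 7.23 against 7.40 in trained arrays.

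Markers of neurons and of other cells moved with the comparisons against the control diet. Endothelial and mural markers, 17 probe sets of 13 of 15 listed genes, summed to 1443 to 1582 with alcohol, 1429 to 1539 with the isocaloric diet and 790 to 1016 with the control diet. Of their 7 probe sets tested, 6 were higher than in the control diet in each comparison. Of all probe sets, 11.3% were higher with alcohol, and 7.05% were called in either direction with the isocaloric diet. Neuron markers summed to 19207 to 22181, 19567 to 20966 and 16439 to 19750 in the same order. With alcohol 7 of 19 rose and 1 fell, beside 11.3% and 8.61% of all probe sets. Blood cell markers summed to 608 to 1161, 730 to 1118 and 1037 to 1472. No listed marker read 0. Ptgs2, Egr1 and Nr4a1 were also read against these control arrays, and the part of cell makeup in their differences was not tested.

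No member passed the test for training. Averaged over the 3 diets, 0 of 10 member probe sets passed in limma, 0 had an unadjusted p under 0.05, and 0.0105% of all probe sets were called. Of the 10 differences 8 were negative, with a median of -0.08 beside -0.00 over all probe sets. Arc differed by -0.14 (95% interval -0.36 to 0.07), Egr1 by -0.10 (95% interval -0.30 to 0.10), Nr4a1 by -0.06 (95% interval -0.22 to 0.11) and Junb by 0.05 (95% interval -0.14 to 0.24). Over the 10 probe sets the intervals ran from -0.40 to 0.24, so an averaged rise of more than 0.24 on the log2 scale lay outside all 10. Within single diets the intervals reached 0.35 with alcohol, 0.54 with the isocaloric diet and 0.93 with the control diet. Fos and Egr2, which lay under the filter, are not among the 10. The labels do not give the time from training to collection, so these values speak only to the time at which the tissue was taken.

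Within single diets 0 members passed in the alcohol, isocaloric or control diet, where 0.0%, 0.0% and 0.0315% of all probe sets were called, and 2, 0 and 1 members had an unadjusted p under 0.05, beside 8.59%, 7.12% and 10.9% of all probe sets. Ptgs2, Egr1, Nr4a1, Dusp1 on 1368146_at and Homer1 on 1368319_a_at differed downward with training in the alcohol and isocaloric diets and upward in the control diet. Arc differed downward in every diet, and Junb upward with alcohol and the isocaloric diet and downward with the control diet. The other tested Homer1 probe sets differed upward in the isocaloric diet alone. None of these differences passed the threshold. The patterns were read off after the values were seen, and their share among all probe sets was not counted. Ptgs2 differed between trained and naive arrays by -0.25 with alcohol (SE 0.11, limma adjusted p = 0.564), by -0.29 with the isocaloric diet (SE 0.14, adjusted p = 0.71) and by 0.59 with the control diet (SE 0.16, adjusted p = 0.20). The test of the difference itself gave -0.84 for alcohol against control (SE 0.20, adjusted p = 0.113) and -0.88 for isocaloric against control (SE 0.21, adjusted p = 0.0825), both short of the threshold. In the tests of diet by training, 0 of 10 members passed in limma for alcohol against isocaloric, alcohol against control or isocaloric against control. Of all probe sets 0.0%, 0.0315% and 0.179% were called there, and 0, 1 and 1 members had an unadjusted p under 0.05, beside 4.21%, 13.1% and 13.9% of all probe sets. Without control naive replicate 1 both Ptgs2 differences passed, at -0.87 (adjusted p = 0.0354) and -0.91 (adjusted p = 0.031), and so did that of Egr1 for isocaloric against control, at -0.81 (adjusted p = 0.0241).

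The 6 member probe sets under the filter were dim. On 5 of them the highest array read 5.58 to 20.8 times the lowest, and on Egr2 1387306_a_at 1.53 times, against 1.23 to 2.66 times on the 10 tested probe sets. Fos, the AP-1 subunit most used as an activity mark, ran on 1371283_at from 4.91 to 59.7, with 5.5, 11.4, 4.91 and 6.9 in alcohol trained arrays and 38.8, 59.7, 17.0 and 8.2 in alcohol naive arrays. On 1375043_at, the same 2 groups read 18, 22.5, 43.6 and 17.2 against 9.3, 15.4, 20.2 and 36.4. The 2 Fos probe sets thus did not order these groups alike. Fitted with no filter, 1371283_at differed between trained and naive by -1.27 with alcohol (limma adjusted p = 0.528), and 1375043_at by 0.28 (adjusted p = 0.902).

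Egr2, a zinc-finger factor related to Egr1, ran from 28.7 to 44.0 on 1387306_a_at. It was 31.1, 31.9, 28.7 and 35.5 in alcohol trained arrays, all below the isocaloric trained values of 41.8, 41.8, 36.3 and 43.4, at -0.31 (95% interval -0.61 to -0.01, adjusted p = 0.363 with no filter). Groups without overlap in this comparison were seen for 9.2% of all probe sets tested. The other Egr2 probe set, 1398266_a_at, ran the other way, with 29.4, 51.5, 9.3 and 24.1 in alcohol trained and 26.1, 4.6, 19.9 and 27.9 in isocaloric trained arrays (0.41, 95% interval -0.39 to 1.21, adjusted p = 0.69). Homer1 on 1370997_at ran from 5.59 to 31.1 over all arrays. Dusp1 on 1368147_at was 3.14 to 22.0 in control arrays, 14.6 to 37.3 in isocaloric arrays and 20.6 to 51.3 in alcohol arrays. With no filter it was higher with alcohol than with the control diet by 1.22 (adjusted p = 0.0048), from control values near the constant of 6.06, which shrinks fold changes of dim probe sets. The tested Dusp1 probe set, 1368146_at, differed by 0.12 in that comparison, so the 2 probe sets of this gene disagreed.

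**Figure D3:**
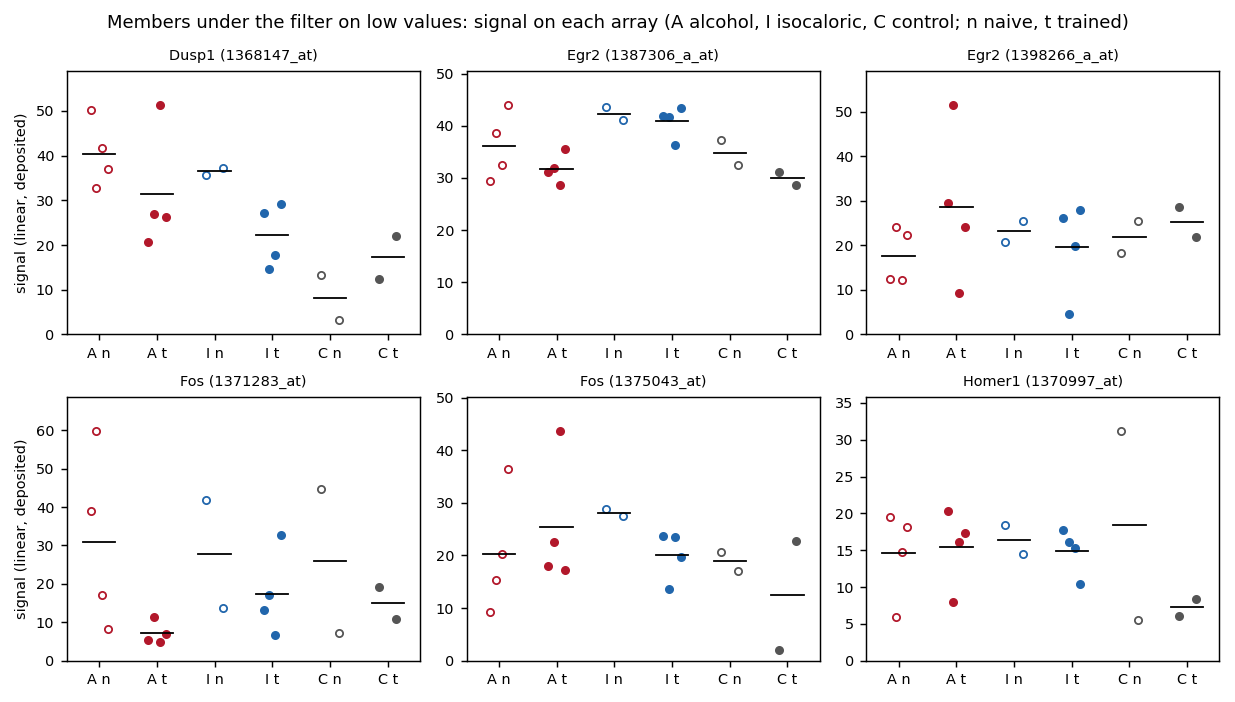
Deposited linear signal (vertical axes, each from 0) of the 6 member probe sets under the filter on each of 18 arrays, by group; open points are naive, filled points trained, and black bars are group means. Values of Fos 1371283_at in alcohol trained arrays lie between 4.91 and 11.4 and in alcohol naive arrays between 8.2 and 59.7, and these ranges overlap. On Fos 1375043_at they are 17.2 to 43.6 and 9.3 to 36.4.

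To ask whether members rose and fell together from array to array, each array's deviation from its group mean was correlated over the 18 arrays (12 residual degrees of freedom), with 1 probe set per gene. Among the 21 pairs of the 7 tested members, r ran from -0.36 to 0.78 with a median of 0.22, beside a median of 0.00 over pairs of 952 probe sets taken evenly from those tested. After adjustment over the 21 pairs, 0 passed. The highest were Arc with Nr4a1 (r = 0.78, Spearman's rho 0.70, permutation p = 0.006, adjusted p = 0.069) and Dusp1 with Nr4a1 (r = 0.63, rho 0.53, permutation p = 0.007, adjusted p = 0.069). Without the 2 arrays farthest from the median of the first gene, r was 0.49 and 0.56. For Arc those were alcohol trained replicate 3 and isocaloric trained replicate 4, on which both genes read high. Ptgs2 varied apart from these, with r of 0.12 with Arc, -0.09 with Nr4a1 and -0.36 with Dusp1. Arrays share scaling and RNA quality, which can move any pair of genes, and the pair values are shown in the map of correlations and in the plot of deviations.

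**Figure D4:**
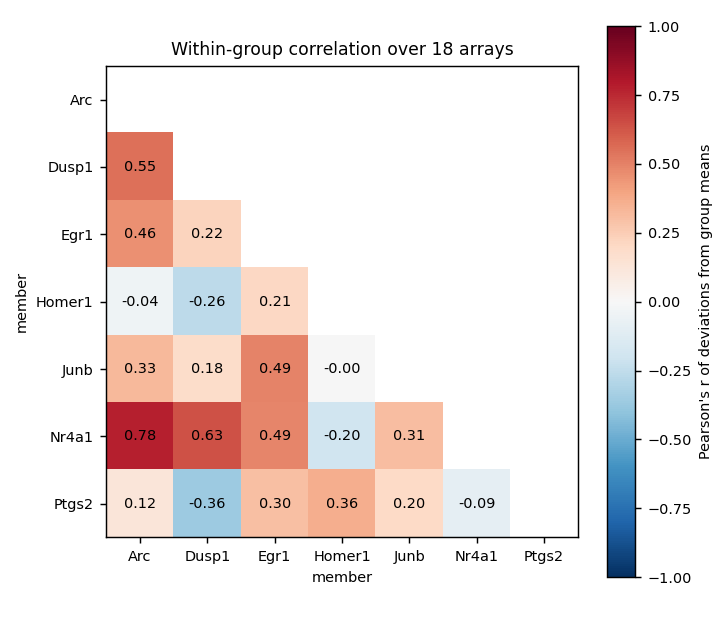
Pearson's r between members of deviations from group means over 18 arrays, as a triangle with both axes listing the 7 tested members and the colour running from -1 (blue) to 1 (red). Arc with Nr4a1 (0.78) and Dusp1 with Nr4a1 (0.63) are the darkest red cells.

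**Figure D5:**
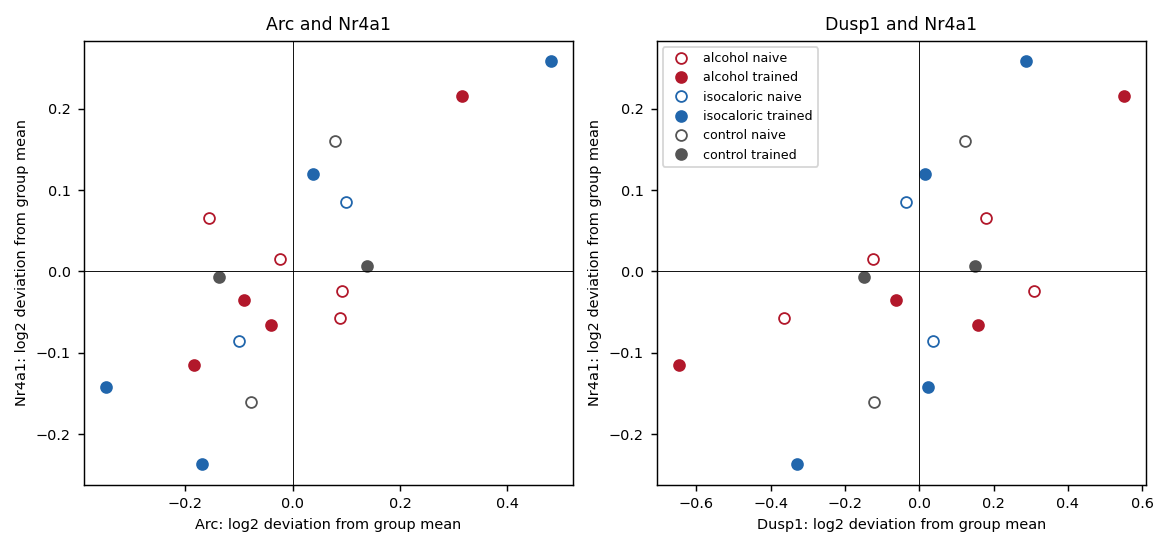
Deviation from the group mean, in log2 units, of Nr4a1 (vertical axes) against Arc and against Dusp1 (horizontal axes), 1 point per array, coloured by diet and filled for trained. The 2 arrays at the upper right of the Arc panel are alcohol trained replicate 3 and isocaloric trained replicate 4, and r falls from 0.78 to 0.49 without them.

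The 4 tested Homer1 probe sets correlated with each other at r of 0.09 to 0.59. Leaving members aside, among single-symbol probe sets tested the 3 most like Arc were those of Gna11, Ppa1 and Lrp11 (r of 0.85, 0.81 and 0.79). The most like Egr1 were Cntnap2, C3h9orf78 and Mta3 (r of 0.90, 0.90 and 0.89). Klf2, Celf2 and Kctd13 were most like Nr4a1 (r of 0.89, 0.84 and 0.84), and Nlgn1, Slc11a2 and Hebp1 were most like Ptgs2 (r of 0.84, 0.83 and 0.78). Probe sets with placeholder symbols (LOC or RGD) were left out of this ranking. For each gene the first named was also the highest of all 9510 values, over 18 arrays.

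Other activity-regulated genes, a list of 66 of which 59 were on the array and 38 tested (49 probe sets), gave a frame for the members. Against the isocaloric diet 0 of the 49 passed in limma, with a median of -0.04. With alcohol against control 5 rose and 2 fell, among them Klf2 (0.98), a zinc-finger factor, Bhlhe40 (0.43), Jun (0.37) and Syt4 (0.28), while Pde4b (-0.24) and Dusp6 (-0.20) fell. The fifth that rose was Cebpb (0.32), named after its value was seen. With the isocaloric diet against control 5 rose and 0 fell, namely Klf2 (1.05), Ccn2 (0.69), Klf6 (0.42), Jun (0.33, on another probe set) and Syt4 (0.32). Training called 0 of them. Of the genes upstream of the members, 46 probe sets of 31 genes were tested. Against the isocaloric diet 2 rose and 1 fell, where 3.06% of all probe sets were called in either direction. They were Map2k2 (0.29), a MAP kinase kinase, and Prkar1a (0.26) and Prkar2a (-0.32), regulatory subunits of protein kinase A. With alcohol against control 10 rose and 2 fell, including Ntrk2 (0.66), the BDNF receptor, Grin1 (0.69), the shared NMDA receptor subunit, Mef2d (0.59), a transcription factor, and Prkar1a (0.51) and Prkacb (0.68), subunits of protein kinase A. Camk2a moved in opposite directions on 2 probe sets there, by -1.82 and 0.95, the second named after its value was seen. With the isocaloric diet against control 4 rose and 2 fell, namely Ntrk2 (0.46), Cacna1d (0.70), Grin1 (0.42) and 1 probe set of Camk2a (0.96) that rose, and another of Camk2a (-1.62) and Ppp3r1 (-0.22) that fell. In the same list training called 0. Both lists' shares in the comparisons with the control diet sit beside 19.9% and 7.05% of all probe sets called. Endothelial and mural markers rose in the same comparisons, and the part of cell makeup in the list values, Klf2 included, was not tested.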

How the data were processed

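The 18 arrays were placed in 6 groups by the diet and training in their descriptions. The authors deposited a linear intensity for each probe set on each array. Array medians ran from 67.7 in control naive replicate 2 to 80.3 in isocaloric naive replicate 2. The submitters' processing notes give MAS5 for 2 arrays. For the other 16, no source used here names the summary method. Scaling to a common level can hide a shift of all genes. Genes were named from the platform annotation, where 12789 probe sets had 1 symbol, 312 had several and 2822 had none. By gene ID 12754 matched RefSeq.

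Intensities were analysed as log2(value + 6.06), the 10th percentile of all values. After the 40th percentile filter and removal of 57 controls, 9520 probe sets were tested with limma 3.58.1 in R 4.3.3 (lmFit on 6 group means, eBayes with a trend), two-sided, with Benjamini-Hochberg adjustment over all of them and a threshold of 0.05. The averaged comparisons weight training states or diets equally. The 6 probe sets under the filter were read from the fit with no filter. Correlations used 100000 permutations within groups. The scripts were tested on simulated data. Alternatives were another constant, scaling, filter, weights, RNA quality covariates, a replicate block, the compared groups alone, and leaving out arrays.

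The text names every probe set of the members, up to 6 called probe sets with the smallest p from the activity-regulated and the upstream list in each comparison, and the 3 nearest probe sets of Arc, Egr1, Ptgs2 and Nr4a1. The members and lists were chosen with earlier results of these data known. Python 3.11.15, pandas 2.3.3, numpy 2.4.6, scipy 1.17.1 and matplotlib 3.10.9 were used. The number of arrays limits the precision.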

Additional observations from a re-analysis of the deposited data

Results flagged for a closer look

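Homer1 on 1370656_a_at read 137 in alcohol trained replicate 4, against 176 to 179 in the other 3 arrays of the group. The gap was 0.944 of the group's range, above the critical value of 0.829 for 4 samples. Of 48 groups of 4 checked, this was the 1 past that value, and chance alone passes about 1 in 20.

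The training difference of Ptgs2 was 0.84 lower on the log2 scale with alcohol than with the control diet (-0.84, SE 0.20, unadjusted p = 0.000477, limma adjusted p = 0.113). It was also lower with the isocaloric diet than with the control diet (-0.88, SE 0.21, unadjusted p = 0.000643, adjusted p = 0.0825). Both tests use the same 4 control arrays.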

How the results depend on the processing

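Over 120 member results and 3602 alternatives, 3543 kept their side of the threshold, 43 lost it and 16 gained it. The 5 called results changed sign in 0 alternatives, while 48 results that were not called changed sign in 147. In counts of called members, 50 of 393 alternatives moved. For alcohol against isocaloric averaged over training (2 members called), the count was 1 with median centring, no filter, the stricter filter, the replicate block, the Gapdh covariate and without the 4 arrays highest in choroid plexus markers, 3 with the actin covariate, where Dusp1 passed too, and 1 to 2 when leaving out 1 array. In naive arrays (0) it was 1 with array weights. In trained arrays (1) it was 0 with the stricter filter, only the groups compared, the replicate block, either covariate and without those 4 arrays, and 0 to 1 when leaving out 1 array. For alcohol against control (2) it was 3 with no filter, where Dusp1 on 1368147_at passed, 1 with the stricter filter, array weights, the replicate block and without those 4 arrays, 0 with the actin covariate, and 0 to 3 when leaving out 1 array. For isocaloric against control (0) it was 3 without the 2 MAS5 arrays, and 0 to 3 when leaving out 1 array. The interactions with control (0 each) ran from 0 to 1 for alcohol and 0 to 2 for isocaloric when leaving out 1 array. Training counts stayed at 0, as did pairs of correlated members. The cause of these changes was not tested, beyond the fewer probe sets a filter leaves. Ptgs2, at the 49.2th percentile of mean level, was not tested under the stricter filter, set at the 60th. The lower counts with that filter lack Ptgs2 for that reason and not through a failed test.

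Replicate numbers gave no sign of pairing: same-numbered arrays correlated at -0.228 to 0.126 in their deviations (median -0.026), and 3 of 18 arrays correlated best with their own number. In groups of 2 arrays the deviations mirror each other, which limits this check. Whether same-numbered arrays shared a litter or a day was not tested. With the replicate block, Nr4a1 stood at an adjusted p of 0.0642 for alcohol against isocaloric, and Egr1 at 0.36 (adjusted p = 0.0751) for alcohol against control. Groups of 2 arrays and dim signals limit what can be seen for Fos and Egr2.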
